A study of Mus musculus with 6 samples.

Results

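The Rag GTPases and the Ragulator complex tether mTOR complex 1 (mTORC1) to the lysosome when amino acids are plentiful. Their genes were described in embryonic mouse lungs by 10 members of the deposited table, found by exact match of the gene symbol among 23420 listed genes. The 10 members are the 4 Rag GTPases (*Rraga*, *Rragb*, *Rragc*, *Rragd*), the 5 Ragulator subunits (*Lamtor1* to *Lamtor5*) and *Slc38a9*. RNA-Seq was performed on whole embryonic lungs at E11.5dpc (days post coitus), with 3 pools of control lungs and 3 pools of mutant lungs, each pool holding 3 or 4 lungs. The comparison asks how the transcriptome differs once Raptor (*Rptor*), the mTORC1 subunit that recognizes substrates, has been lost from the lung epithelium.

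Controls were Raptorf/+; ShhCre/+ embryos, which carry 1 floxed *Rptor* allele and the same Cre as the mutants. Mutants were Raptorf/f; ShhCre/+ embryos, with both *Rptor* alleles floxed. Cre was expressed from the *Shh* locus, which is active in lung epithelium, so mesenchyme, endothelium and blood cells of the mutant lungs are not targeted. Lungs were pooled by genotype, and an individual embryo cannot be followed in these values. The p-values below set the difference between groups against the spread between these pools, not between single embryos.

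Rag GTPases work as heterodimers in which RagA or RagB pairs with RagC or RagD. Ragulator, a pentamer of LAMTOR proteins, anchors the Rag dimer on the lysosomal membrane, and SLC38A9 is a lysosomal transporter that reports arginine inside the lysosome to the Rag dimer. With amino acids present, RagA or RagB is loaded with GTP and the dimer binds Raptor, which places mTORC1 beside its activator RHEB. Raptor therefore acts downstream of the 10 members, and loss of *Rptor* removes the partner that the Rag dimer recruits.

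All values are normalized counts, that is, reads scaled by the size factor of their library. Reads recovered from these values numbered 20197642 to 21276090 per library. *Rptor* itself, the targeted gene, was at 2126, 2193 and 2279 normalized counts in the control pools and at 2023, 2137 and 2148 in the mutant pools. The groups overlapped, and the log2 difference (mutant minus control) was -0.06 (SE 0.05, 95% interval -0.17 to 0.04, limma adjusted p = 0.584). Controls are heterozygous and cells outside the epithelium keep the gene, so this value is a weak check of the genotype labels. All 20 epithelial markers on the list used here were found in these lungs. Their summed level was 19462 to 23012 in control pools and 15686 to 16958 in mutant pools, and in limma 7 of the 20 fell and 0 rose at an adjusted p under 0.05 (16 and 1 at an unadjusted p). *Cdh1*, which encodes E-cadherin, fell by 0.97 on the log2 scale (SE 0.10, limma adjusted p = 0.00728). The summed mesenchymal markers were at 103902 to 109373 in controls and at 123911 to 132719 in mutants, and the summed endothelial markers were at 13105 to 14826 and at 14952 to 15757. The 7 cardiac muscle markers summed to 857 to 930 in controls and to 711 to 740 in mutants. Their median log2 difference was -0.03, with 3 of the 7 above 0, and 0 passed an adjusted p under 0.05 in limma. In RNA from whole lungs, fewer epithelial cells and less RNA of these marker genes per epithelial cell cannot be told apart. The part of cell composition in the member values below was not tested.

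None of the 10 members passed the test between mutant and control lungs at an adjusted p under 0.05 in limma, in edgeR or in DESeq2, while 86 of 17168 tested genes (0.501%) passed in limma. At an unadjusted p under 0.05 the count was again 0 of 10 in each of the 3 tools, against 13.6% of all tested genes in limma. Control and mutant pools did not overlap for 1 member, *Slc38a9*, against 20.2% of all tested genes. The log2 difference was above 0 for 6 of 10 members, with a median of 0.05, and above 0 for 8495 of 17168 tested genes, with a median of -0.00. All 10 members had passed the filter on low values. For 9 of 10 members the 95% limma interval of the difference lay within 1.5-fold in either direction, and *Rragd* was the exception. These intervals are for RNA of the whole lung, and a larger difference confined to the epithelium could lie within them.

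**Figure D1:**
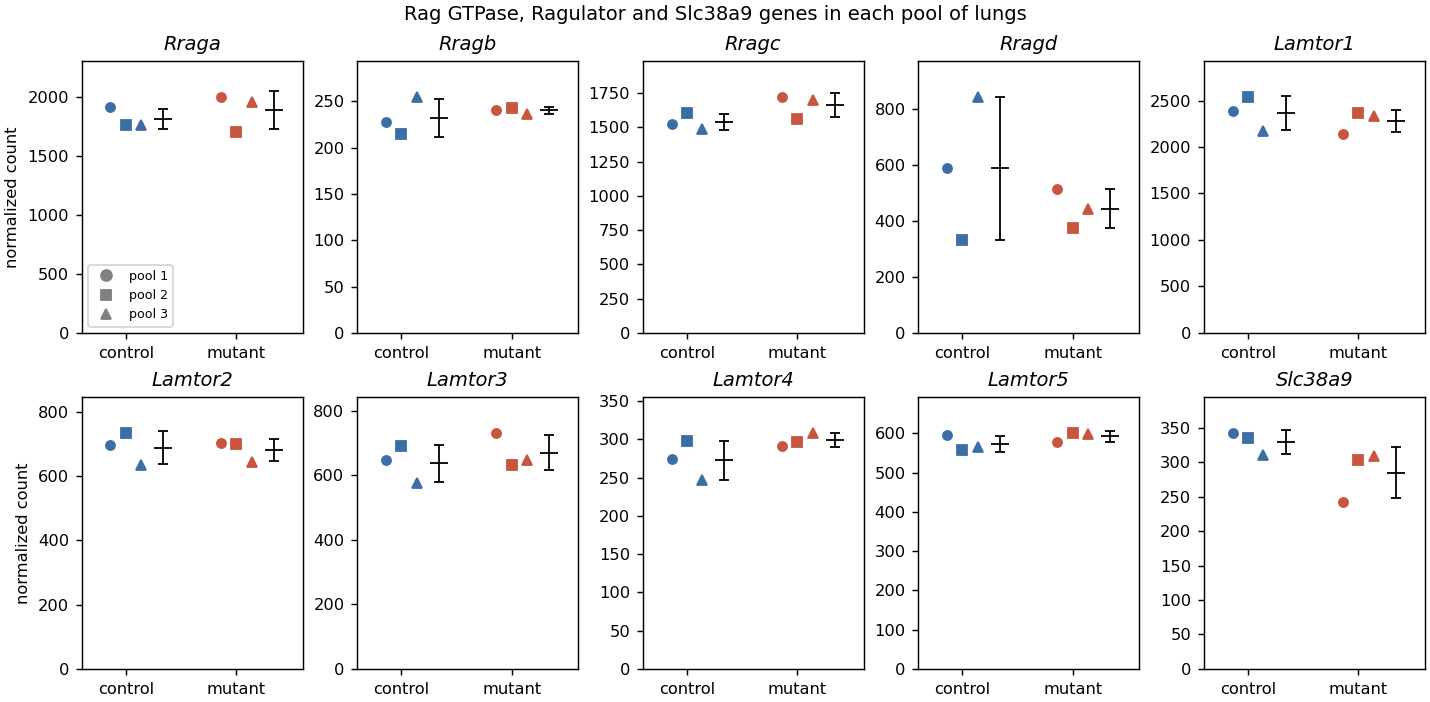
Normalized counts (vertical axes, each starting at 0) of the 10 members in the 3 control pools (blue) and 3 mutant pools (red), with the marker shape giving the pool number and the black bars giving the mean and SD of each group. Control and mutant pools overlap for every member other than *Slc38a9*, and the control pools of *Rragd* run from 333 to 845.

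*Rraga* encodes RagA, a GTPase of the subunit that binds GTP in the active dimer. It lies on chromosome 4 (chr4:86575668-86577285, plus strand, GRCm38) and its annotated transcript is 1 exon. Control pools were at 1912, 1763 and 1761 normalized counts and mutant pools at 2001, 1699 and 1954. The lowest and the highest of the 6 values were both mutant pools, so the control range lay inside the mutant range. Mutants differed from controls by 0.05 on the log2 scale (SE 0.07, 95% interval -0.09 to 0.20, limma adjusted p = 0.766).

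Its paralogue *Rragb* encodes RagB and is X-linked (chrX:153139981-153171943, plus strand, 11 exon blocks). Levels were far lower, at 227, 215 and 255 normalized counts in control pools and at 241, 243 and 236 in mutant pools. The 3 mutant pools sat within the control range, and the mutant SD of 3.93 was smaller than the control SD of 20.8. A log2 difference of 0.05 was obtained (SE 0.10, 95% interval -0.16 to 0.26, limma adjusted p = 0.866). *Xist*, the RNA that coats the inactive X chromosome, was at 4599, 309 and 12989 in control pools and at 41.9, 466 and 161 in mutant pools. The groups overlapped through control pool 2, but *Xist* was lower in mutants by limma at an unadjusted p of 0.00559 (log2 difference -4.16, 95% interval -6.80 to -1.52, adjusted p = 0.164), and the Y-linked gene *Ddx3y* differed by 0.31. Sex composition of the pools and genotype are therefore confounded in part, and values with *Xist* as a covariate cannot tell them apart. With the log2 *Xist* value as a covariate the *Rragb* difference was 0.18 (limma adjusted p = 0.694), still short of the threshold.

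RagC and RagD form the other side of the dimer, where the GDP-bound state is the active one. *Rragc* (chr4:123917446-123936997, plus strand, 7 exon blocks) was at 1525, 1603 and 1491 normalized counts in control pools and at 1725, 1562 and 1698 in mutant pools. Mutant pools 1 and 3 lay above every control pool and mutant pool 2 lay among them. The log2 difference was 0.11 (SE 0.05, 95% interval -0.01 to 0.23, limma adjusted p = 0.405), and with the *Xist* covariate it was 0.00 (limma adjusted p = 0.989). The annotation places 264 exon bases of *Rragc* under a gene on the opposite strand, *4930535I16Rik*, and whether the counting used strand is not given in the sources used here.

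*Rragd* (chr4:32983037-33022180, plus strand, 8 exon blocks) was the most variable member. It was at 588, 333 and 845 normalized counts in control pools and at 513, 374 and 444 in mutant pools. The control pools held both the lowest and the highest value, a 2.54-fold range, and the mutant pools lay between them. The coefficient of variation in controls was 43.5%, at percentile 99.5 among 11458 genes with a mean of at least 100, whose median was 5.7%. In mutants it was 15.7%, at percentile 97.0, against a median of 3.96%. The log2 difference was -0.32 (SE 0.27, 95% interval -0.91 to 0.27, limma adjusted p = 0.649). Mutant levels from 0.532 to 1.21 times the control level lay within the interval. The fit draws the variance of each gene toward that of genes of similar level, so for a gene this variable the interval may be too narrow. Its unadjusted p was 0.257 in this limma fit and 0.415 in limma without the trend.

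The *Rragd* difference depended on which control pool was used. Without control pool 2 it was -0.68 (limma adjusted p = 0.0758), without control pool 3 it was -0.01 (limma adjusted p = 0.989), and with the *Xist* covariate it was 0.25 (limma adjusted p = 0.82). The same order of control pools, with pool 2 lowest and pool 3 highest, was seen for *Xist*. It was also seen for the embryonic globin gene *Hbb-bh1* (9007, 4545 and 15059) and for the mesenchymal gene *Twist1* (239, 137 and 431). The cardiac genes *Nkx2-5* (52.1, 17.6 and 72.6) and *Myh7* (33.4, 10.3 and 80.5) had it too. The macrophage gene *Mrc1* (715, 917 and 456) and the epithelial gene *Sftpc* (277, 296 and 138) had the reverse order. These genes were picked after their values were seen, and the share of all genes with this order was not counted. The 14 mesenchymal markers together had another order, with sums of 103902, 109373 and 106085 in the control pools. Among the mutant pools *Rragd* was highest in pool 1 and lowest in pool 2. *Xist* was lowest in pool 1 (41.9) and highest in pool 2 (466), all far below control pool 3 (12989). In the mutant pools *Hbb-bh1* (7355, 6460 and 7049), *Twist1* (345, 258 and 311) and *Nkx2-5* (20.4, 9.8 and 11.8) had the *Rragd* order. *Myh7* (32.7, 34.3 and 28.5) did not. The 7 erythroid markers found, of 8 listed, summed to 109908, 98597 and 126807 in the control pools and to between 97591 and 121831 in the mutant pools, with *Hba-a1* at 0 in every pool. The part of blood or of other tissue content in the *Rragd* values was not tested.

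RagA and RagB can replace each other in the dimer, as can RagC and RagD, so the balance of each pair was computed within each pool. Per kilobase of exon, *Rraga* made up 91.6% ± 0.861 (SD, n = 3) of the sum of *Rraga* and *Rragb* in controls and 91.6% ± 0.779 (SD, n = 3) in mutants. The ratio of the normalized counts of *Rraga* to *Rragb* was 8.4, 8.17 and 6.87 in controls and 8.27, 6.96 and 8.26 in mutants. On the log2 scale the means were 2.96 ± 0.16 (SD, n = 3) and 2.96 ± 0.14 (SD, n = 3), a difference of 0.00 (two-sided exact permutation p = 1). The predominance of *Rraga* was thus present in all 6 pools.

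For RagC and RagD, *Rragc* made up 84.1% ± 6.36 (SD, n = 3) of the per-kilobase sum in controls and 88.2% ± 1.14 (SD, n = 3) in mutants. The ratio of normalized counts was 2.59, 4.81 and 1.76 in controls and 3.36, 4.17 and 3.82 in mutants, so that the control range enclosed the mutant range. The log2 ratios were 1.49 ± 0.73 (SD, n = 3) and 1.91 ± 0.16 (SD, n = 3), a difference of 0.43 (two-sided exact permutation p = 0.4). With 3 pools against 3 the smallest p this test can give is 0.1, so it cannot reach 0.05. The difference was 0.09 when control pool 3 was left out and 0.82 when control pool 2 was left out.

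**Figure D2:**
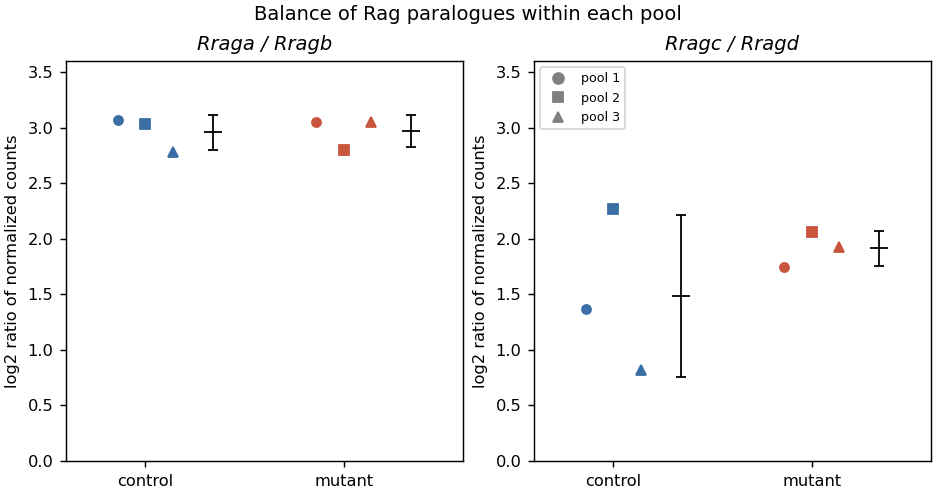
Log2 ratio of normalized counts (vertical axes) of *Rraga* to *Rragb* (left) and of *Rragc* to *Rragd* (right) in each control pool (blue) and mutant pool (red), with the mean and SD of each group in black. The *Rraga* to *Rragb* ratio stays between 2.78 and 3.07 in all 6 pools, and the *Rragc* to *Rragd* ratio runs from 0.82 to 2.27 among the control pools.

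Ragulator is built around LAMTOR1 (p18), which is anchored in the lysosomal membrane by lipids and wraps around the other subunits. *Lamtor1* (chr7:101905904-101926675, plus strand, 6 exon blocks) was at 2383, 2543 and 2170 normalized counts in control pools and at 2144, 2365 and 2330 in mutant pools. The groups overlapped, with the lowest value in mutant pool 1 and the highest in control pool 2. The difference on the log2 scale was -0.05 (SE 0.06, 95% interval -0.19 to 0.09, limma adjusted p = 0.766). Of the 50-base windows of its annotated transcripts, 25.58% also occur in transcripts of other genes, most of them in *Lrrc51*, so a part of its reads could have been shared or discarded in counting.

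LAMTOR2 (p14) and LAMTOR3 (MP1) form one roadblock-domain dimer within the complex. *Lamtor2* (chr3:88549819-88553074, minus strand, 4 exon blocks) was at 695, 735 and 635 in control pools and at 702, 701 and 643 in mutant pools. *Lamtor3* (chr3:137918506-137928900, plus strand, 7 exon blocks) was at 646, 690 and 575 in control pools and at 732, 633 and 646 in mutant pools. For both genes the lowest of the 6 values was control pool 3 and the groups overlapped. The log2 differences were -0.01 for *Lamtor2* (SE 0.07, 95% interval -0.17 to 0.15, limma adjusted p = 0.959) and 0.07 for *Lamtor3* (SE 0.08, 95% interval -0.11 to 0.26, limma adjusted p = 0.747).

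LAMTOR4 and LAMTOR5 (HBXIP) form the other roadblock dimer. *Lamtor4* (chr5:138255482-138259398, plus strand, 4 exon blocks) was at 274, 298 and 247 in control pools and at 291, 297 and 309 in mutant pools. Mutant pool 3 was the highest of the 6 and control pool 3 the lowest, while control pool 2 lay between the mutant pools. The log2 difference was 0.14 (SE 0.09, 95% interval -0.07 to 0.34, limma adjusted p = 0.559), and it was 0.01 with the *Xist* covariate and 0.07 without control pool 3. *Lamtor5* (chr3:107278858-107284082, plus strand, 4 exon blocks) was at 596, 558 and 566 in control pools and at 577, 602 and 599 in mutant pools, which overlap. Its log2 difference was 0.05 (SE 0.06, 95% interval -0.09 to 0.18, limma adjusted p = 0.772), and 14.49% of its 50-base windows also occur in another gene, *Gm15190*.

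The mean log2 level of the 5 Ragulator genes was 9.47, 9.52 and 9.33 in the control pools and 9.48, 9.49 and 9.47 in the mutant pools. The mutant pools lay within the control range, and control pool 3 was the lowest. That pool was also the lowest control for *Lamtor1*, *Lamtor2*, *Lamtor3* and *Lamtor4* taken singly, whereas *Lamtor5* was lowest in control pool 2. Over the 6 pools, the genes whose log2 values followed this mean most closely were *Itfg3* (Pearson r = 0.998), *Tgm2* (0.998), *Mrps15* (0.996), *Tsen15* (0.995) and *Snx3* (0.995). A high r was not particular to these genes: 421 of 11448 genes with a mean of at least 100 had an r of at least 0.9. All points share the same 6 libraries. Because *Rragd* stood apart in its spread, the same measure was taken for it after its values had been seen, and *Smoc1* (0.994), *Pde4dip* (0.992) and *Has2* (0.991), the hyaluronan synthase gene, came first among 245 genes with an r of at least 0.9.

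*Slc38a9* (chr13:112660751-112738749, plus strand, 15 exon blocks) was the one member whose groups did not overlap. It was at 343, 335 and 310 normalized counts in control pools and at 243, 303 and 309 in mutant pools. The mutant pools were all below the controls, but mutant pool 3 and control pool 3 were separated by a single normalized count after rounding. The log2 difference was -0.21 (SE 0.10, 95% interval -0.45 to 0.02, limma adjusted p = 0.404), which covers mutant levels from 0.733 to 1.01 times the control level. Without mutant pool 1 the difference was -0.10 (limma adjusted p = 0.731).

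**Figure D3:**
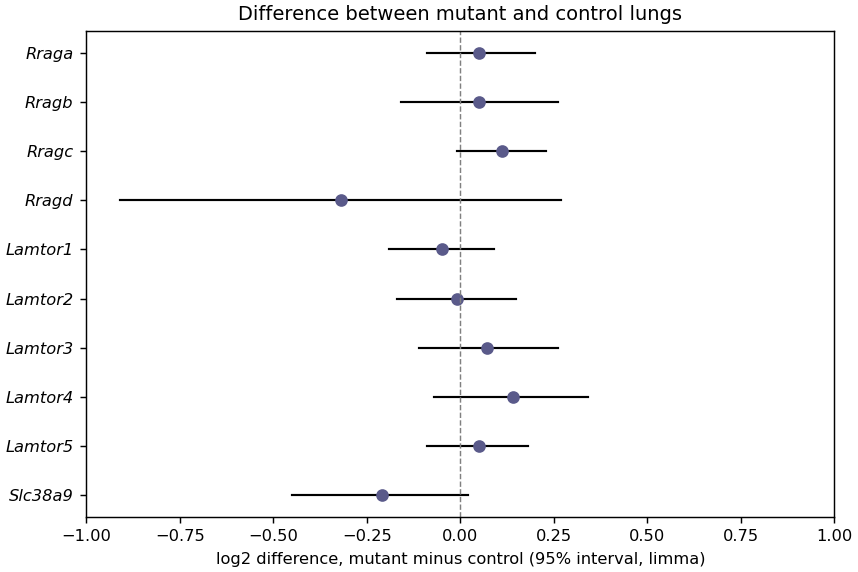
Log2 difference between mutant and control lungs (horizontal axis, mutant minus control) for each of the 10 members, with the limma estimate as a point and its 95% interval as a line. Every interval includes 0, and the interval of *Rragd*, from -0.91 to 0.27, is the widest.

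Levels were compared between members only per kilobase of annotated exon, in normalized counts. In the control pools *Lamtor1* was highest at 1732 ± 137 (SD, n = 3), followed by *Rraga* at 1120 ± 53.5, *Lamtor2* at 938 ± 68.2 and *Lamtor5* at 648 ± 22.9. *Rragc* was at 594 ± 22.2, *Lamtor3* at 484 ± 44.4 and *Lamtor4* at 311 ± 28.5. The lowest levels were those of *Rragd* at 114 ± 49.5, *Rragb* at 103 ± 9.23 and *Slc38a9* at 36.9 ± 1.91. Neighbours in this order were separated in every control pool other than *Rragd* and *Rragb*, whose ranges overlapped, and over all 6 pools *Lamtor5* and *Rragc* overlapped as well. The 5 Ragulator subunits, which enter the complex in equal number, thus spanned levels from 311 to 1732 per kilobase. Exon length was taken over all annotated transcripts, with 8910 bases for *Slc38a9* as the longest, so annotated exons that are seldom used lower a level on this scale.

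Promoters were read for 9 of the 10 members from RefSeq (GRCm38.p6), from 250 bases before to 50 after each transcription start. *Lamtor3* has no entry. The motif CACGTG, an E-box read alike on both strands, is the core that TFEB and TFE3 bind, and both of these factors are held at the lysosome by Rag dimers. It occurred in 4 of the 9 promoters and in 7.15% of all 32851 promoters. The longer form TCACGTGA, which contains the first and is the core of the lysosomal CLEAR element, occurred in 0 of the 9 and in 0.974% of all promoters. The stretches around the motif are shown because 4 members share it, with the motif in capitals and all on the plus strand, in the order *Rragc* (chr4:123917301-123917346), *Lamtor4* (chr5:138255342-138255403), *Lamtor1* (chr7:101905749-101905794) and *Rragb* (chrX:153139811-153139960).
Rragc: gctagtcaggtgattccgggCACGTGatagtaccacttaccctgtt
Lamtor4: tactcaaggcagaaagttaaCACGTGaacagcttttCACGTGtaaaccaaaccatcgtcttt
Lamtor1: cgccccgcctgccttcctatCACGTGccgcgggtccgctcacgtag
Rragb: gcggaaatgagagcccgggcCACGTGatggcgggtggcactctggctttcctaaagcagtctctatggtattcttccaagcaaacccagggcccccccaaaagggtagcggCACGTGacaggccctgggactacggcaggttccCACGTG

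The copy in *Rragc* begins 112 bases before the start and that in *Lamtor1* 68 bases before it. *Lamtor4* holds 2 copies, 120 and 104 bases before the start, and *Rragb* holds 3, the first at 127 bases and the last spanning the start itself. Binding was not measured in these lungs, so a match describes the letters and is not a site. The members with the motif (log2 differences of 0.11, 0.14, -0.05 and 0.05) and those without it all missed the threshold.

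Other genes of the pathway were followed from a list of 42, of which 41 were found and tested. They include regulators of the Rag dimer, its clients, *Rheb* and a complex that binds Ragulator (BORC). At an adjusted p under 0.05 in limma 0 of the 41 passed, as in edgeR and DESeq2, against 0.501% of all tested genes in limma. At an unadjusted p under 0.05, 3 of the 41 passed in limma (3 in edgeR and 2 in DESeq2), against 13.6% of all tested genes in limma. The log2 difference was above 0 for 15 of the 41, with a median of -0.02 and a range from -0.15 to 0.18. The groups did not overlap for 6 of them, 3 higher in mutants (*Rheb*, *Sesn1*, *Snapin*) and 3 lower (*Mlst8*, *Sesn3*, *Slc36a1*), against 20.2% of all tested genes, so this count does not stand above the background.

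*Rheb*, the small GTPase that switches on mTORC1 once the Rag dimer has brought it to the lysosome, had the lowest p of the list. It was at 1800, 1722 and 1693 normalized counts in control pools and at 2078, 1947 and 1889 in mutant pools. All 3 mutant pools were above the controls, but the log2 difference of 0.18 (SE 0.05, 95% interval 0.07 to 0.29) had a limma adjusted p of 0.154. *Mlst8*, a subunit of both mTOR complexes, was at 759, 784 and 805 in control pools and at 698, 717 and 717 in mutant pools, with a log2 difference of -0.14 (SE 0.05, limma adjusted p = 0.298).

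Among the cytosolic sensors of leucine, arginine or S-adenosylmethionine, *Sesn1* was at 863, 894 and 783 in control pools and at 901, 982 and 970 in mutant pools. Its log2 difference was 0.17 (SE 0.07, 95% interval 0.02 to 0.31, limma adjusted p = 0.29). Its paralogue *Sesn3* was at 918, 919 and 893 in control pools and at 830, 886 and 828 in mutant pools, with a log2 difference of -0.10 (limma adjusted p = 0.437). The remaining sestrin gene, *Sesn2*, had a log2 difference of -0.11 (limma adjusted p = 0.663), so 1 of the 3 sestrin genes had a value above 0 and none passed the adjusted test.

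GATOR1, the complex that stimulates GTP hydrolysis by RagA and RagB, had 0 of 3 genes past an unadjusted p of 0.05, with *Nprl3* at -0.13 (limma adjusted p = 0.42) and *Nprl2* at 0.05 (0.839). GATOR2, which inhibits GATOR1, had 0 of 5, led by *Seh1l* at -0.06 (limma adjusted p = 0.566) and *Mios* at -0.05 (0.756). KICSTOR, the scaffold that holds GATOR1 at the lysosome, had 0 of 3, with *Kptn* at 0.09 (limma adjusted p = 0.676). Folliculin and its partners, which stimulate GTP hydrolysis by RagC and RagD, had 0 of 3, with *Fnip2* at -0.09 (limma adjusted p = 0.554) and *Fnip1* at 0.09 (0.719).

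BORC, a lysosome positioning complex that binds Ragulator, had 0 of 8 genes past an unadjusted p of 0.05. *Snapin* was at 743, 711 and 734 in control pools and at 832, 749 and 747 in mutant pools, a log2 difference of 0.09 (limma adjusted p = 0.576), and *2310047M10Rik* (*Borcs6*) was at 0.11 (0.643). Of the 5 ubiquitin ligases and other Rag regulators none passed. The lysosomal amino acid transporter gene *Slc36a1* was at 436, 465 and 496 in control pools and at 435, 427 and 398 in mutant pools, a log2 difference of -0.15 (limma adjusted p = 0.427), and *Lars*, the cytosolic leucyl-tRNA synthetase gene, was at -0.11 (0.471).

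**Figure D4:**
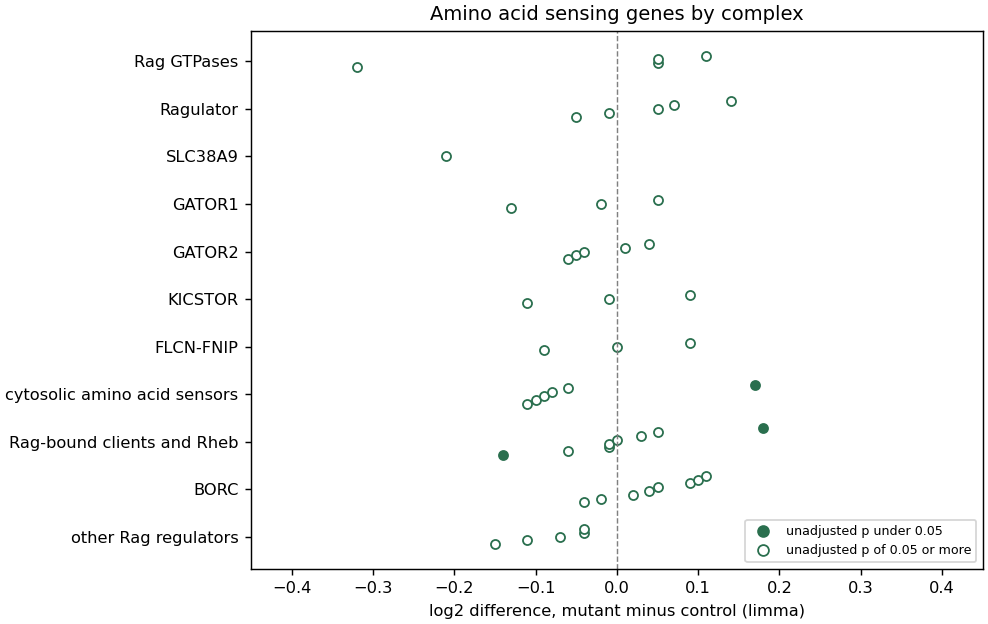
Log2 difference between mutant and control lungs (horizontal axis, mutant minus control, limma) for the members and for the 41 other genes of the pathway, 1 circle per gene and 1 row per complex, with filled circles for an unadjusted p under 0.05. The 3 filled circles are *Sesn1* at 0.17, *Rheb* at 0.18 and *Mlst8* at -0.14, and no gene in the plot passed the adjusted test.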

How the data were processed

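RNA-Seq of whole embryonic lungs was compared between 3 control and 3 mutant pools, grouped by the genotype in the labels, which give no batch or date. The deposited signal is a normalized count per gene, obtained by the authors from read counts with library size factors. The submitters' processing notes name Trim Galore, HISAT2, featureCounts, DESeq2 and the mm10 build. Their versions, the annotation and the strand setting are not given in the sources used here. The labels name a standard Illumina library protocol, whereas the study's methods name the BGISEQ platform. The deposited table also holds the authors' mean, a log2 fold change with its error, a test score and p-values, none of which was used. Dates stood in place of 27 gene symbols.

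The 17168 genes that reached a value of 1 in 3 or more libraries were tested with limma 3.58.1 in R 4.3.3 (lmFit, eBayes with a trend) on log2(normalized count + 1), with Benjamini-Hochberg adjustment over all tested genes and a threshold of 0.05. The log2 scale with a pseudocount of 1 slightly understates changes of low genes. Values were whole multiples of 1 step per library, within 0.01 steps, for 100.0% of values in all 6 libraries, which gave back the reads. edgeR 4.0.16 (quasi-likelihood test, TMM) and DESeq2 1.42.0 were run on those reads as alternatives and called 79 and 277 genes. Pools of one group differed by more than counting noise, so none held a copy of the reads of another. The other alternatives were limma without the trend, upper-quartile scaling (75th percentile), a pseudocount of 0.1, a minimum of 10 in all libraries, no minimum, a replicate block, log2 *Xist* as covariate and leaving out each pool. The fits were tested on simulated data.

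Exon bases, overlaps and positions are those of GENCODE on GRCm38, found by symbol, and 8 pathway genes were matched through older symbols. *Kics2* had no match. Named genes were the 10 members, *Rptor* and the 2 genes with the lowest p in each pathway list. Also named were the 5 genes most like the Ragulator mean and markers given beside a result. The genes most like *Rragd*, and those with its order of control pools or the reverse, were chosen after their values were seen. Some genes that this rule names are not reported here. The members and all lists were chosen with earlier results of these data known.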

Additional observations from a re-analysis of the deposited data

How the results depend on the processing

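Over 15 other settings, 0 of 150 values of single members passed an adjusted p of 0.05, and the counts of members and of other pathway genes past it were 0 in every setting. The number of all genes past it was 86 in the reported fit, 277 with DESeq2 on recovered reads, 8 with limma without the trend, and between 1 and 468 when a pool was left out, highest without control pool 3. Control pools 1 and 2 and each mutant pool also moved this count by over 1.5 times when left out (1, 147, 12, 21 and 1 genes). The sign of a member turned in 7 of the 150 values. With the *Xist* covariate these were *Lamtor3* (-0.13), *Rraga* (-0.01) and *Rragd* (0.25). Without control pool 2 they were *Lamtor1* (0.00, positive before rounding), *Lamtor2* (0.04) and *Rragb* (-0.00), and without mutant pool 3 *Lamtor2* (0.03), where the values with a pool left out ran from -0.11 to 0.00 for *Lamtor1*, from -0.07 to 0.04 for *Lamtor2* and from -0.00 to 0.12 for *Rragb*. The cause was not tested. The log2 ratio of *Rraga* to *Rragb* differed by -0.09 to 0.09 when a pool was left out, that of *Rragc* to *Rragd* by 0.09 to 0.82, and the Ragulator mean by -0.01 to 0.08. The labels number the pools in both groups and do not say whether same-numbered pools were paired. The deviations of same-numbered pools correlated at -0.03, 0.20 and 0.08, and not every pool correlated best with its own number. Such weak correlations over 3 pools a group cannot decide whether the pools were paired. With a replicate block 71 genes and 0 members passed (lowest adjusted p of a member 0.433), the Ragulator mean differed by 0.04, and the log2 ratios by 0.00 and 0.43. With 3 pools a group, these data cannot bound differences of *Rragd* within 1.5-fold.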
